A study of Mus musculus with 8 samples.

Results

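Alpi encodes intestinal alkaline phosphatase, an enzyme of the brush border that is anchored in the apical membrane of absorptive intestinal cells (enterocytes). Barcodes with Alpi transcripts were picked out of a droplet-based single-cell RNA table (10x platform) of mouse stomach glands. A barcode was a member when it held 100 or more unique molecular identifiers (UMIs, counted transcript molecules) over all complete gene rows and at least 1 of them came from Alpi. This gave 61 members of the 1388 barcodes with 100 or more UMIs, or 4.39% (3.38 to 5.61, exact Clopper-Pearson 95% interval), out of 1460 barcodes in the table. Of the 61, 21 held 3 or more Alpi UMIs, 1.51% (0.939 to 2.3), and are called Alpi-rich below. The other 40 held 1 or 2, and 1327 barcodes held none. The members were chosen by their Alpi counts, so values of Alpi itself are a description.

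All cells came from stomach glands of Atp4bCre; Rosa26NICD; Arid1aflox/flox mice aged 23 weeks. Cre is driven by the promoter of Atp4b, a proton pump gene of parietal cells, switches on the intracellular domain of Notch and removes the floxed part of Arid1a, a subunit gene of the BAF chromatin remodelling complex. Every cell of the series carries these 3 alleles, and no control genotype was analysed here. Cells with high staining for the epithelial surface protein EPCAM and low uptake of a dead-cell dye were sorted, so shares of barcodes describe the sorted fraction. The labels list 8 samples of this 1 genotype, each named as a stomach gland of a mouse, without saying whether the mice were different animals. The table maps no barcode to a sample: the 1460 barcodes are all distinct, carry no sample number and count here as 1 pooled sample with no replicates. No p-value is given, and barcodes shared between the 8 libraries could not be counted.

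The table covers part of chromosome 1 only. Of its 779 complete gene rows, 711 match the GENCODE vM21 annotation of GRCm38, all between positions 3102016 and 89933290. Totals of barcodes ranged from 2 to 1082 UMIs with a median of 279, and these are totals over that stretch, not library depth. Most genes that mark enterocytes, or the parietal, pit, neck and chief cells of the stomach, were not analysed here.

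In the intestine, enterocytes carry microvilli whose actin core is bundled by villin, the product of Vil1, and alkaline phosphatase sits on the outer face of this brush border, where it removes phosphate groups from lipopolysaccharide and nucleotides. Tm4sf20 encodes a membrane protein with 4 transmembrane segments that is known from intestinal epithelium. Brush border enzymes are scarce in normal gastric mucosa and are classical markers of intestinal metaplasia, the replacement of gastric by intestinal epithelium. These 3 genes are the markers behind the name "enterocyte-like".

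Alpi (ENSMUSG00000079440) lies on the minus strand of chromosome 1 from 87098002 to 87101606 (GRCm38). It sits in a cluster of alkaline phosphatase genes, with Alppl2 at 87086694 to 87089928 on the same strand and Akp3, the second intestinal isozyme of the mouse, at 87124973 to 87127912 on the plus strand. Akp3 and Alppl2 had a row in the table and 0 UMIs in all 1388 barcodes. Reads of such close copies could be split in counting. Among all 50-base words of the last 500 bases of Alpi's transcript, where 10x reads of the 3′ end fall, 0 of 451 occurred in a transcript of another gene. Over the whole transcript 55 of 2288 words were shared, with Akp3, Alppl2 and the pseudogene Akp-ps1. The labels do not say which end of transcripts was read.

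The promoters are shown for the gene that defines these barcodes, for its neighbour with no UMI and for Vil1, the marker with the most UMIs. Each is the 150 bases before the transcript start of RefSeq (GRCm38.p6), written 5′ to 3′ along the gene's own strand. Capitals mark matches to CAAAGTCCA, a form of the binding motif of the nuclear receptor HNF4, or to its first 7 letters, CAAAGTC. HNF4 receptors are known regulators of enterocyte genes.
Alpi, chr1:87101607-87101756, minus strand: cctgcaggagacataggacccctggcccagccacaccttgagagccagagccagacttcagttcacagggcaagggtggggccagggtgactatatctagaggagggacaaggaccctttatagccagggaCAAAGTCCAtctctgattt
Akp3, chr1:87124804-87124953, plus strand: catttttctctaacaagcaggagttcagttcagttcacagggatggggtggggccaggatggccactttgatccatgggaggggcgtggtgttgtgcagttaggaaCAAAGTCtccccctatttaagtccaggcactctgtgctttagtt
Vil1, chr1:74409234-74409383, plus strand: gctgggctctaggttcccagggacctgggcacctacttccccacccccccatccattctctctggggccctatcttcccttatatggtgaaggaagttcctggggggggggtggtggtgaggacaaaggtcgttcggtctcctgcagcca
In a search of the 250 bases before the start on both strands, the Alpi match began 19 bases before the start and that of Akp3 44 bases before it. The longer word includes the shorter one. It was found in 126 of 32851 mouse promoters of the same length (0.384%) and the shorter in 1262 (3.84%). A match is a description of letters, and the factor's binding was not measured. The promoter of Tm4sf20 is not shown.

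Alpi transcripts were concentrated in few barcodes. The 1388 barcodes held 247 Alpi UMIs, of which 80.6% were in the 21 Alpi-rich barcodes and 48 in the other 40. One barcode alone held 50 (20.2%), which was 12.4% of its 404 UMIs, and the next held 17 and 16, so that 3 barcodes carried 83 of the 247 (33.6%). The remaining Alpi-rich barcodes ranged from 3 to 13, with 2 barcodes at exactly 3, just inside the threshold, and 8 at exactly 2, just outside it. Of the 40 barcodes below the threshold, 32 had a single UMI. Alpi was found in 24.7 barcodes per 100 UMIs. Of 94 other genes with 125 to 483 UMIs, none was spread over fewer barcodes for its number of UMIs, and their median was 86.9 barcodes per 100 UMIs.

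The share of barcodes with Alpi followed depth. It was 0.606% (2 of 330) among barcodes of 100 to under 200 UMIs and 1.48% (6 of 405) among those of 200 to under 300. It was 4.56% (14 of 307) from 300 to under 400, 10.1% (28 of 277) from 400 to under 600 and 15.9% (11 of 69) at 600 or more. Members had a median of 443 UMIs (146 to 809) and Alpi-rich barcodes of 504 (271 to 809), against 281 (100 to 1082) in barcodes without Alpi. After thinning every barcode to 100 UMIs, 28 still held Alpi, 2.02%, and 5 held 3 or more. The 72 barcodes with fewer than 100 UMIs held 0 Alpi UMIs. For this reason every ratio below was taken within 5 bins of total UMIs, with Alpi left out of the totals. Shares of barcodes that held a gene, and ranges and medians of its UMIs, were not matched for depth. Deeper barcodes hold more UMIs of any gene, so these values differ between the groups by depth alone.

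**Figure D1:**
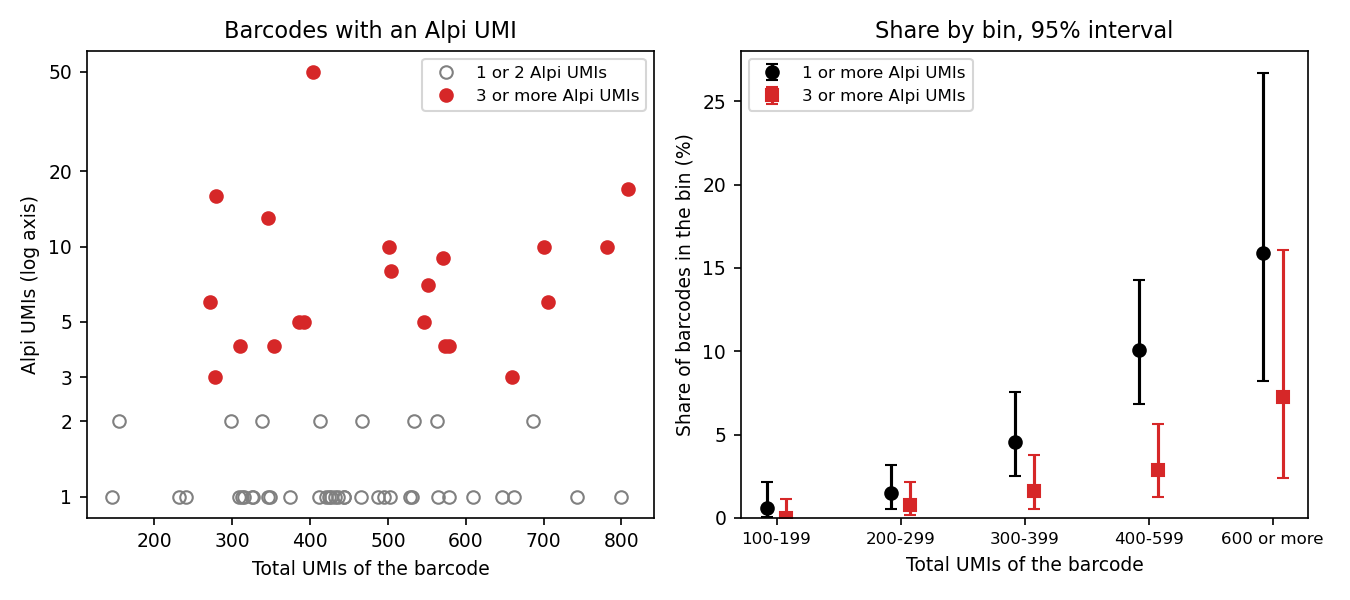
Left: Alpi UMIs (log axis) against total UMIs for each of the 61 barcodes with an Alpi UMI, open grey circles for 1 or 2 and filled red circles for 3 or more. The barcode with 50 Alpi UMIs stands above all others at 404 total UMIs. Right: share of barcodes with 1 or more (black) or 3 or more (red) Alpi UMIs in each bin of total UMIs, with exact 95% intervals for counting error, rising from 0.606% to 15.9% for 1 or more.

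A low share of single UMIs can come from free RNA in the droplets. Barcodes with a UMI of Inpp5d, a phosphatase gene of blood and tuft cells, held no Alpi: 0 of 28, at a median of 270 UMIs, where a floor of 3 counts allows a share of up to 10.7% and the exact 95% interval runs to 12.3%. Both limits lie above the 4.39% of all barcodes, so 28 barcodes cannot show a difference at this depth. The part of free RNA in the 32 barcodes with 1 Alpi UMI was not tested, and no droplets with more than 1 cell were removed.

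The label was checked on its other markers first. Vil1 (chromosome 1, 74409376 to 74435559, plus strand) and Tm4sf20 (82756649 to 82768461, minus strand) both lay higher in the Alpi-rich barcodes, and in barcodes with 1 or 2 Alpi UMIs the intervals of both included a ratio of 1. Neither gene was particular to Alpi barcodes: 60.4% of barcodes without Alpi had a Vil1 UMI and 11.9% a Tm4sf20 UMI. Of the other enterocyte genes with a row, all but Ihh were at or near 0 in the members, with at most 3 UMIs each, and Ihh was at 0.929 (0.458 to 1.69) in the Alpi-rich barcodes. The barcodes are therefore called by their Alpi transcripts here and not by a cell type.

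Vil1 ranged from 0 to 13 UMIs over the 21 Alpi-rich barcodes, with a median of 2, and 19 of the 21 held at least 1. Barcodes of 501 and 574 total UMIs stood out with 12 and 13 Vil1 UMIs. Over the 1327 barcodes without Alpi the range was 0 to 9, with a median of 1, so the groups overlapped. In the Alpi-rich barcodes 74 Vil1 UMIs were counted where 38.7 would be found at the level of barcodes without Alpi in the same bins, a ratio of 1.93 (1.5 to 2.45). As a level this was 7182 against 3765 UMIs per 1000000 UMIs of the table (CPM). The ratio was uneven across depth, at 2.86 (2.05 to 3.91) in the 8 barcodes of 400 to under 600 UMIs and 1.24 (0.702 to 2.05) in the 5 of 600 or more. The barcodes with 12 and 13 Vil1 UMIs are both among those 8. At 200 to under 300 UMIs the ratio was 0.975 (0.200 to 2.87), and at 300 to under 400 it was 1.53 (0.727 to 2.84). Without the barcode with 13 Vil1 UMIs the ratio over all bins was 1.68 (1.27 to 2.18). After thinning to 100 UMIs the interval included 1, at 1.63 (0.858 to 2.85). With 1 or 2 Alpi UMIs the ratio was 1.10 (0.854 to 1.40), and set directly against those barcodes, the Alpi-rich ones had 1.96 times as much Vil1 (1.39 to 2.77). Vil1 overlaps Usp37 on the other strand. Strand use in counting is not given in the sources used here, so for this and other overlapping genes the partner's reads cannot be told apart.

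Tm4sf20 ranged from 0 to 19 UMIs in the Alpi-rich barcodes, with a median of 1, and 13 of the 21 held it. A single barcode of 781 UMIs and 10 Alpi UMIs held 19 of the 39. Barcodes without Alpi also reached 19, with a median of 0. The ratio was 3.43 (2.37 to 4.83) with all 21 barcodes and 2.01 (1.21 to 3.18) without that barcode. With 1 or 2 Alpi UMIs the ratio was 1.46 (0.946 to 2.18), and the direct ratio of the Alpi-rich to these barcodes was 2.3 (1.35 to 3.96). Read from the other side, 7 of 54 barcodes with 3 or more Tm4sf20 UMIs held Alpi, 13.0% (5.37 to 24.9), at a median of 407 UMIs. Of 42 barcodes with 5 or more Vil1 UMIs 5 did, 11.9% (3.98 to 25.6), at a median of 503.5. Over all barcodes of 400 to under 600 UMIs the share was 10.1% (28 of 277), which both intervals included. From 300 to under 400 UMIs it was 4.56% (14 of 307), below the interval for Tm4sf20 and inside that for Vil1. Neither share was matched to the depth of these barcodes.

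Further genes of enterocytes gave little to set beside these. Of 41 listed, 11 had a row and 8 a UMI, and only Ihh and Cyp27a1 reached the 50 UMIs needed for a test. Ihh, which encodes the hedgehog ligand that gut epithelium sends to the stroma, was at 0.929 (0.458 to 1.69) in Alpi-rich barcodes and at 1.55 (1.04 to 2.24) in those with 1 or 2 Alpi UMIs. One barcode held 10 of the 32 Ihh UMIs of the latter, and without it their ratio was 1.11 (0.682 to 1.70). Cyp27a1, a sterol hydroxylase gene of bile acid synthesis, had 0 UMIs in the Alpi-rich barcodes where 1.53 were expected. Mogat1, a monoacylglycerol acyltransferase gene, had 39 UMIs in the table and 0 in the 61 members, where 2.33 were expected. The iron exporter gene Slc40a1 had 1 UMI in the members. At these expected numbers a difference was not detectable.

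A gene was called higher when its ratio was 1.5 or more and its exact 95% interval lay above 1, and lower in the same way at 1/1.5 or less. Genes with at least 50 UMIs in the 1388 barcodes were tested, 239 besides Alpi. Intervals cover counting error only, and they understate the error where 1 or a few barcodes hold most of a gene's UMIs. In the Alpi-rich barcodes 12 of the 239 genes were called higher (5.02%) and 6 lower (2.51%), around a median ratio of 0.977. When the 10 most abundant genes were left out of the totals, 11 were higher and 11 lower, with the median of all tested genes moving from -0.0342 to -0.147 on the log2 scale. Over all 61 members 11 genes were called higher (4.60%) and 8 lower (3.35%), with a median ratio of 0.982. For the 40 barcodes with 1 or 2 Alpi UMIs 5 were called in each direction (2.09% higher and 2.09% lower), with a median of 0.964. Without the barcode that held the most UMIs of the gene, 10 of the 12 higher calls in the Alpi-rich barcodes held, 8 of the 11 over all members and 3 of the 5 with 1 or 2 Alpi UMIs. The calls lost were Ptprn and Nif3l1 in the first set, Slc9a2, Il18rap and Tgfbrap1 in the second, and Slc9a2 and Ihh in the third. All 6, 8 and 5 lower calls held, but leaving out the barcode with the most UMIs of a gene lowers its ratio. This check therefore says little about lower calls.

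**Figure D2:**
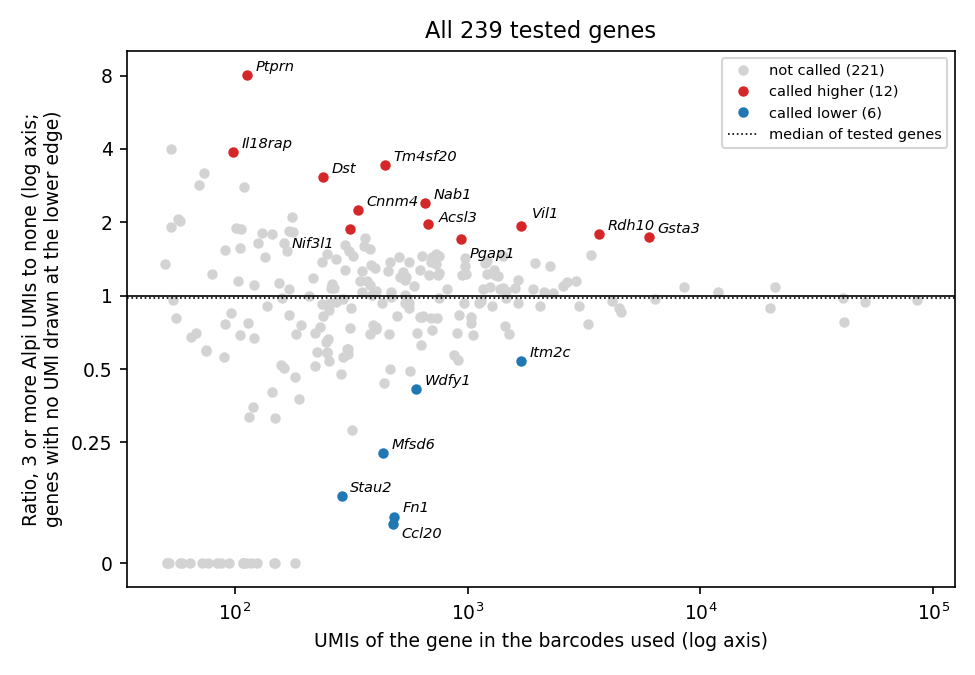
Each point is 1 of the 239 tested genes: its UMIs in the 1388 barcodes (log axis) against the ratio of its level in the 21 Alpi-rich barcodes to barcodes without Alpi (log axis, genes with 0 UMIs drawn at the lower edge). Red points (12) were called higher, blue points (6) lower, and the dotted line is the median ratio of 0.977. Abundant genes lie close to 1, and the spread widens as UMIs become fewer.

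Of 5 tested genes of redox and xenobiotic enzymes, Rdh10 and Gsta3 were called higher in the Alpi-rich barcodes. Rdh10 encodes a retinol dehydrogenase, which makes retinaldehyde, the precursor of retinoic acid. It ranged from 0 to 15 UMIs over the 21 Alpi-rich barcodes, with a median of 6, and 20 of the 21 held it. Barcodes without Alpi had a median of 2 and a range of 0 to 22. The barcode with 50 Alpi UMIs also held the most Rdh10, 15 of its 404 UMIs, and barcodes with 10 Alpi UMIs held 14, 14 and 8. The ratio was 1.79 (1.5 to 2.12), from 143 UMIs against 80.0 expected, and lay above 1 in each of the 4 depth bins that hold Alpi-rich barcodes, between 1.45 and 2.14, although the intervals of the lower 2 bins included 1. After thinning it was 1.55 (0.992 to 2.31). With 1 or 2 Alpi UMIs the ratio was 0.890 (0.736 to 1.07), and the direct ratio between the groups was 2.11 (1.64 to 2.72).

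Gsta3 encodes a glutathione transferase of the alpha family, which conjugates glutathione to toxic electrophiles. It ranged from 1 to 37 UMIs in the Alpi-rich barcodes with a median of 8, against 0 to 64 with a median of 2 in barcodes without Alpi. All 21 Alpi-rich barcodes held it, while 5 of them had 3 or fewer. The ratio was 1.74 (1.52 to 1.97), and it differed by depth. It was 2.25 (1.69 to 2.95) at 300 to under 400 UMIs, 2.31 (1.91 to 2.78) at 400 to under 600 and 1.02 (0.766 to 1.32) at 600 or more. With 1 or 2 Alpi UMIs it was 1.34 (1.19 to 1.5), and the direct ratio was 1.42 (1.20 to 1.68). Close relatives of Gsta3 on other chromosomes were not analysed, so reads shared with them cannot be told apart. Idh1, the cytosolic isocitrate dehydrogenase gene, which makes NADPH, was at 1.47 (1.20 to 1.78), under the size needed for a call, and at 1.30 (1.10 to 1.52) with 1 or 2 Alpi UMIs.

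Over the list of redox and xenobiotic enzymes, 18 of 19 genes had a row, 13 a UMI and 5 entered the test. Of these 5, 2 were called higher in the Alpi-rich barcodes, Rdh10 and Gsta3, and 0 lower. Over all tested genes 5.02% were called higher and 2.51% lower. Their median ratio was 1.47 beside 0.977 over all tested genes, and the lowest of the 5 was at 0. The summed level of the list was 1.62 times as high (1.48 to 1.76), and 1.18 times (1.09 to 1.28) with 1 or 2 Alpi UMIs. Gsta3 (254 UMIs), Rdh10 (143) and Idh1 (112) gave most of its 544 UMIs in the Alpi-rich barcodes. The sum therefore mostly restates these 3 genes. It was 7 to 58 UMIs a barcode with a median of 20, against 0 to 103 and a median of 8 in barcodes without Alpi.

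Acsl3 encodes an enzyme that activates long-chain fatty acids for lipid synthesis. It was found in 16 of the 21 Alpi-rich barcodes, with 0 to 5 UMIs and a median of 1, against 30.7% of barcodes without Alpi. The ratio was 1.97 (1.34 to 2.83), and 1.20 (0.816 to 1.70) with 1 or 2 Alpi UMIs. Acsl3 was the 1 called gene among 11 tested genes of lipid, bile acid and fatty acid metabolism, of 17 listed and 15 with a UMI. Over all tested genes 5.02% were called higher, so 1 call among 11 is too few to speak for the list. The median of the 11 was 1.15, and 0 were called lower. Acadl and Pecr, genes of mitochondrial and peroxisomal fatty acid metabolism, were at 1.05 (0.717 to 1.49) and 1.15 (0.490 to 2.33).

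Cnnm4 encodes a magnesium transporter of the basolateral membrane of intestinal epithelium. It had 0 to 3 UMIs in the Alpi-rich barcodes, 14 of which held it (66.7%), against 17.7% of barcodes without Alpi, shares not matched for depth. The ratio was 2.25 (1.34 to 3.58). It was the 1 called gene among 9 tested ion, metal and nutrient transporter genes, beside 5.02% of all tested genes called higher. A single call among 9 is too few to speak for the list. The median of the 9 was 1.42, with 0 called lower. Slc9a2, an apical sodium-proton exchanger gene, was at 1.64 (0.431 to 4.42) in Alpi-rich barcodes and at 2.67 (1.27 to 5.11) in those with 1 or 2 Alpi UMIs, or 2.15 (0.937 to 4.34) without the barcode with the most Slc9a2.

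Among genes of cell architecture, Dst, which encodes the cytoskeletal linker dystonin, had 0 to 3 UMIs in the Alpi-rich barcodes and was found in 12 of the 21, against 12.5% of barcodes without Alpi. The ratio was 3.07 (1.66 to 5.28), from 15 UMIs, and without the deepest 5% of barcodes 2.29 (0.968 to 4.65). It was the 1 called gene of 10 tested in the list of apical and cytoskeletal genes, beside 5.02% of all tested genes called higher. The median of the list was 0.894 and its summed level was at 1.08 (0.976 to 1.18). Villin is not part of that list.

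Nab1, Pgap1 and Nif3l1 were also called higher. Nab1 encodes a corepressor of the EGR transcription factors, which respond to growth factor signals. It ranged from 0 to 6 UMIs with a median of 1 and was found in 14 of the 21 Alpi-rich barcodes, against a median of 0 and 32.4% of barcodes without Alpi. The ratio was 2.39 (1.67 to 3.34), while barcodes with 1 or 2 Alpi UMIs were at 0.801 (0.496 to 1.23). The direct ratio between them was 3.18 (1.83 to 5.67). The Nab1 ratio of the Alpi-rich barcodes differed by depth. It was 0.943 (0.0237 to 5.35) at 200 to under 300 UMIs and 0.746 (0.0895 to 2.74) at 300 to under 400. At 400 to under 600 it was 3.16 (1.89 to 5.03), and at 600 or more 2.64 (1.43 to 4.60). Pgap1, an enzyme gene that remodels glycosylphosphatidylinositol anchors, the kind of anchor that holds alkaline phosphatase in the membrane, was chosen for mention after its values were seen. It was at 1.70 (1.17 to 2.39) in the Alpi-rich barcodes and at 1.49 (1.10 to 1.97) in the others. Nif3l1 was at 1.87 (1.00 to 3.24), from 14 UMIs in 7 barcodes, or 1.54 (0.752 to 2.83) without 1 barcode with 3 of them, and overlaps 3 genes on the other strand.

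Il18rap encodes the accessory chain of the interleukin 18 receptor. It had 0 to 3 UMIs and was found in 8 of the 21 Alpi-rich barcodes (38.1%), against 5.35% of barcodes without Alpi. The ratio was 3.89 (1.82 to 7.56) from 11 UMIs, and 3.20 (1.31 to 6.76) without the barcode with 3. With 1 or 2 Alpi UMIs it was 0.869 (0.229 to 2.35), and the direct ratio was 4.16 (1.21 to 18.1). The list of immune cell genes held 10 with a row and 9 with a UMI. Il18rap gave all 11 UMIs of that list in the Alpi-rich barcodes, and the others were at 0. Inpp5d was among them, at 0 where 0.690 were expected. In the inflammatory list, 1 of 7 tested genes was called higher, Il18rap, and 1 lower, the chemokine gene Ccl20. Over all tested genes 5.02% were called higher and 2.51% lower, so 1 call of 7 is too few to speak for the list.

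**Figure D3:**
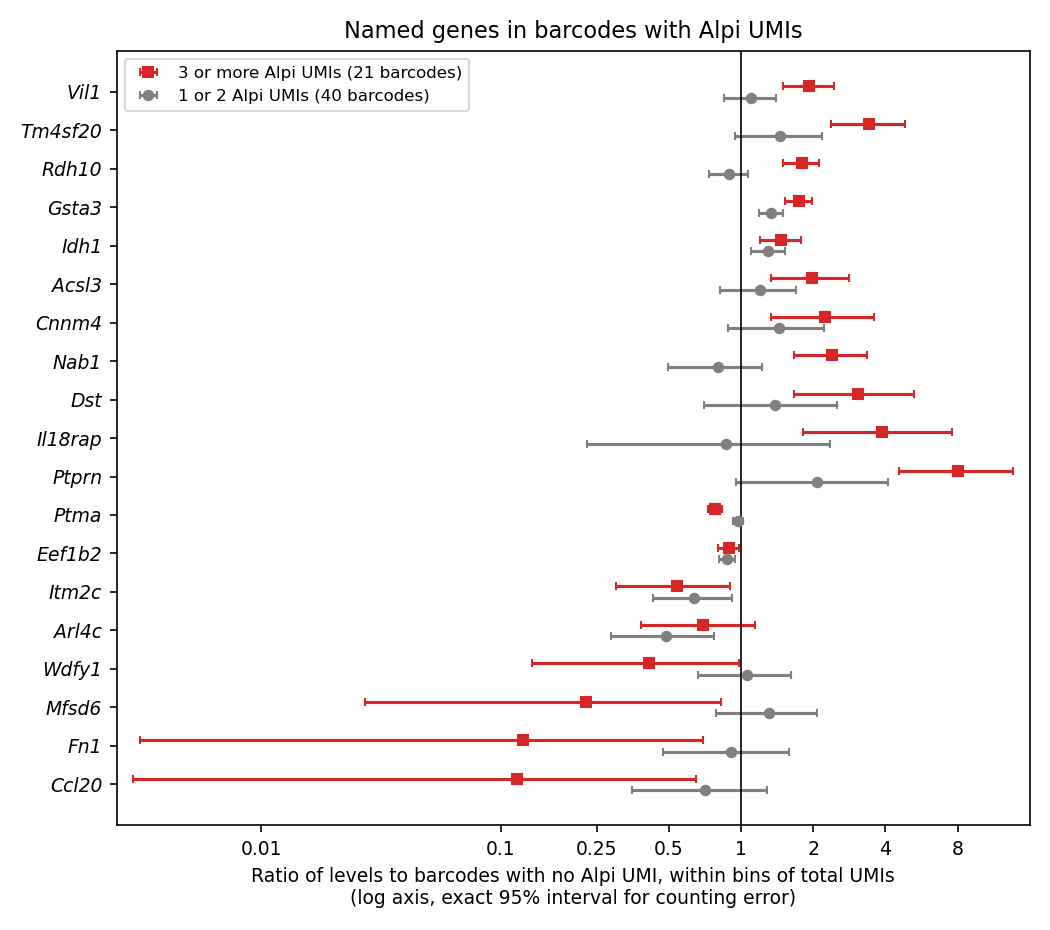
Ratio of levels to barcodes without Alpi, within bins of total UMIs (log axis), for 19 genes in the 21 barcodes with 3 or more Alpi UMIs (red squares) and the 40 with 1 or 2 (grey circles). Bars are exact 95% intervals for counting error. The red squares of Vil1, Rdh10 and Nab1 lie at 1.93, 1.79 and 2.39, while their grey circles lie at 1.10, 0.890 and 0.801.

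Nppc, which encodes the precursor of C-type natriuretic peptide (chromosome 1, 86666291 to 86670571, minus strand), had 13 of its 15 UMIs in barcodes with Alpi. At 15 UMIs it was under the number needed for the test. It was picked from 178 genes under 50 UMIs by its UMIs and ratio in the Alpi-rich barcodes. Its ratio and the genes found beside it are therefore a description. Of the 15 Nppc UMIs, 12 were in 4 Alpi-rich barcodes and 1 was in a barcode with 1 Alpi UMI. The other 2 were in 2 of the 1327 barcodes without Alpi. The 4 Alpi-rich barcodes held 8, 2, 1 and 1 Nppc UMIs beside 9, 8, 17 and 7 Alpi UMIs. The ratio was 164.4 with a wide interval (36.4 to 1516). Without the barcode with 8 it was 57.3. All 4 held Vil1 (6, 3, 4 and 3 UMIs), Tm4sf20 (3, 1, 1 and 1), Gsta3 (37, 16, 7 and 14) and Rdh10 (10, 8, 5 and 4), and all 4 had 504 or more UMIs in total. No Ptprn UMI was found in any of the 7 barcodes with Nppc. Ptprn was found in 19.0% of the Alpi-rich barcodes and 2.49% of those without Alpi, so 7 barcodes are too few to show that the genes avoid each other. Pms1 and Utp14b were the other genes with fewer than 50 UMIs and at least 3 in the Alpi-rich barcodes, both with 3 and with intervals that included 1.

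Ptprn encodes a membrane protein of the dense-core vesicles of endocrine cells. It had the highest ratio of the tested genes in the Alpi-rich barcodes, 8.03 (4.55 to 13.6), from 20 UMIs in 4 barcodes. One of these, with 310 UMIs and 4 Alpi UMIs, held 13, and without it the interval included 1, at 2.45 (0.940 to 5.42). The 4 barcodes held 13, 4, 2 and 1 Ptprn UMIs beside 4, 16, 10 and 4 Alpi UMIs. All 4 held Tm4sf20, with 2, 2, 19 and 2 UMIs, and 0 Nppc, with Vil1 between 0 and 2. Nppc was found in 19.0% of the Alpi-rich barcodes, so its absence from 4 of them is not informative. Of 12 barcodes in the table with 3 or more Ptprn UMIs, 3 held Alpi, 25% (5.49 to 57.2), at a median of 456.5 UMIs. The interval included the 10.1% found over all barcodes of 400 to under 600 UMIs. The list of endocrine genes had 5 members with a UMI: beside Ptprn, Resp18 had 1 UMI in the Alpi-rich barcodes, and Scg2, Fev and Cryba2 had 0. Expected numbers were 0.338 for Resp18, 0 for Scg2, 0.207 for Fev and 0.243 for Cryba2, too low for a difference to be detected. The summed level of the list ranged from 0 to 14 UMIs a barcode, with 17 of the 21 at 0, against 0 to 37 in barcodes without Alpi. Whether these barcodes hold more than 1 cell was not tested.

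**Figure D4:**
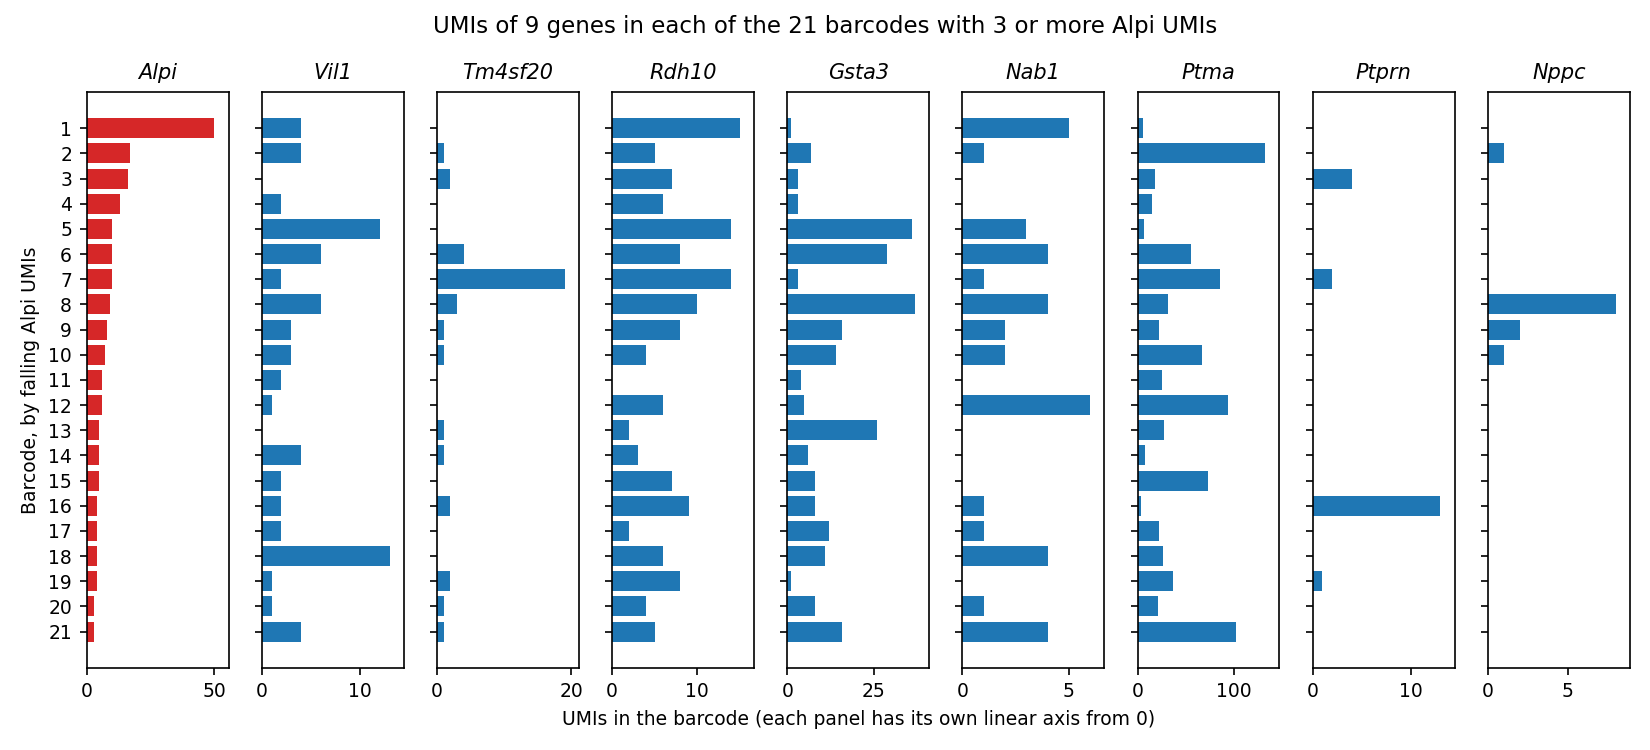
UMIs of 9 genes in each of the 21 Alpi-rich barcodes, in order of falling Alpi UMIs from top to bottom (each panel has its own linear axis from 0). Nppc and Ptprn bars are in 4 barcodes each and never in the same one, while Gsta3 is in all 21 and Rdh10 in 20. At 4 of 21 barcodes for each gene, the lack of a shared barcode does not show that they avoid each other.

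On the lower side, Ccl20, a chemokine gene that attracts CCR6-bearing leukocytes, had 1 UMI in the Alpi-rich barcodes where 8.68 were expected, a ratio of 0.116 (0.00291 to 0.650). Barcodes without Alpi held 0 to 46 Ccl20 UMIs, and 10.4% held any. Fn1, the fibronectin gene, also had 1 UMI, against 8.11 expected, a ratio of 0.124 (0.00311 to 0.697). For both genes the 1 or 2 Alpi group was nearer to 1, at 0.710 (0.350 to 1.29) and 0.907 (0.475 to 1.58). After thinning no UMI of either gene was left in the Alpi-rich barcodes and the intervals included 1. The list of stromal and muscle genes had 3 UMIs in 3 Alpi-rich barcodes, no more than 1 in each, against 0 to 24 in barcodes without Alpi, with a summed ratio of 0.283 (0.0579 to 0.835). Of these 3 UMIs, 2 came from Myl1, a muscle myosin light chain gene, at 4.01 (0.459 to 15.9), and 1 from Fn1. Fn1 gave 469 of the 728 UMIs of the list in barcodes without Alpi, so the summed ratio mostly restates Fn1. Of the 8 list members with a UMI, Myl1, Igfbp5 and Fn1 were tested, with 0 called higher and Fn1 the 1 called lower. Over all tested genes 5.02% were called higher and 2.51% lower. Igfbp5 had 0 UMIs where 1.37 were expected.

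Stau2, which encodes a protein that binds double-stranded RNA, had 1 UMI in the Alpi-rich barcodes, at 0.151 (0.00379 to 0.854). Mfsd6, a gene of the major facilitator family of membrane transporters, had 2, at 0.226 (0.0271 to 0.827). Wdfy1, an adaptor gene of endosomes, was at 0.414 (0.134 to 0.978). Itm2c, a gene for an integral membrane protein, was the only 1 of the 6 called lower in all 3 sets. It had 0 to 4 UMIs in the Alpi-rich barcodes and a median of 0, with 8 of 21 holding it, against 64.9% of barcodes without Alpi. Its ratio was 0.541 (0.301 to 0.898) there, 0.640 (0.432 to 0.917) with 1 or 2 Alpi UMIs and 0.602 (0.437 to 0.811) over all members.

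Ptma, which encodes the chromatin-associated protein prothymosin alpha, took 6.84% of the UMIs other than Alpi in the median Alpi-rich barcode (1.31 to 16.7) and 8.10% in the median barcode without Alpi. The barcode with 50 Alpi UMIs had only 6 Ptma UMIs, and 1 of 809 UMIs had 132. The ratio of 0.781 (0.729 to 0.836) was short of the size for a call and varied with depth. It was 0.479 (0.377 to 0.600) from 300 to under 400 UMIs, 0.620 (0.547 to 0.699) from 400 to under 600, and 1.02 (0.927 to 1.12) at 600 or more. The direct ratio to barcodes with 1 or 2 Alpi UMIs was 0.780 (0.718 to 0.847). Eef1b2 and Rpl7, genes of translation, were at 0.891 (0.806 to 0.984) and 0.940 (0.884 to 0.998). Ptma and ribosomal protein genes have many processed copies in the genome, so reads could be split in counting.

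In the remaining lists no gene was called in the Alpi-rich barcodes, where 5.02% of all tested genes were called higher and 2.51% lower. All 12 protein synthesis genes were tested and 0 were called in either direction, with a median of 0.967 and a summed ratio of 0.958 (0.930 to 0.986). The 14 mitochondrial genes also gave 0 calls, with a median of 1.01 and a summed ratio of 1.03 (0.971 to 1.09). Of 8 replication and mitosis genes 0 were called, at a median of 0.587 and a summed ratio of 0.837 (0.575 to 1.18). The 7 tested transcription factor genes and the 3 tested genes of Notch, Wnt, hedgehog and BMP signalling gave 0 calls, at medians of 0.734 and 0.929. The 5 tuft cell genes gave 0 calls, at a summed ratio of 1.10 (0.757 to 1.55). Their most restricted member Inpp5d was at 0 where 0.690 were expected, with an interval up to 5.85. Slc9a4, the 1 stomach epithelial gene with a row, was at 0.769 (0.427 to 1.28). B3gnt7, the 1 goblet cell gene with a row, had 0 UMIs in the Alpi-rich barcodes, with an interval up to 2.20.

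In barcodes with 1 or 2 Alpi UMIs 5 genes were called higher and 5 lower. The 5 called higher were 1700066M21Rik at 3.61 (1.53 to 7.60), the tRNA-modifying enzyme gene Tyw5 at 2.72 (1.42 to 4.86), Slc9a2 at 2.67, the ephrin receptor gene Epha4 at 2.60 (1.61 to 4.04) and Ihh at 1.55, the last of which was at 1.11 (0.682 to 1.70) without 1 barcode. In the Alpi-rich barcodes 1700066M21Rik was at 2.85 (0.732 to 8.01) and Tyw5 at 1.80 (0.564 to 4.41). The direct ratios of the Alpi-rich to these barcodes, 0.729 (0.162 to 2.66) for 1700066M21Rik, 0.687 (0.192 to 2.03) for Tyw5 and 0.815 (0.181 to 2.96) for Slc9a2, had intervals that included 1. Epha4 was at 1.08 (0.386 to 2.41) in the Alpi-rich barcodes, and the direct ratio of the Alpi-rich to the others, 0.416 (0.138 to 1.06), had an interval that included 1. The 5 called lower were the rhomboid protease gene Rhbdd1, the centromere chaperone gene Hjurp at 0.420 (0.152 to 0.931), Pde6d at 0.435 (0.173 to 0.912), the small GTPase gene Arl4c at 0.486 (0.286 to 0.775) and Itm2c. In the Alpi-rich barcodes Hjurp was at 0.574 (0.184 to 1.37), Pde6d at 0.744 (0.295 to 1.56) and Arl4c at 0.692 (0.384 to 1.15), with intervals that included 1. Their direct ratios of the Alpi-rich to the others were 1.31 (0.309 to 5.25), 1.73 (0.490 to 6.30) and 1.28 (0.593 to 2.72). Rhbdd1 had 0 UMIs in all 61 members where 7.76 were expected, at least 2.59-fold lower against a floor of 3 counts over the group. It was found in 10.2% of barcodes without Alpi. Arl4c was found in 10 members, 1 of them with 10 UMIs, against 32.3% of barcodes without Alpi. Of the Alpi-rich barcodes 9.52% held 3 or more Arl4c UMIs, and of those without Alpi 9.19%.

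Over the 61 members 11 genes were called higher and 8 lower, and Tgfbrap1, Clk1 and Zfand2b among them were called in neither smaller set. Ptprn at 4.63 (2.87 to 7.31; 2.35 without its top barcode), 1700066M21Rik at 3.40 (1.66 to 6.54), Tyw5 at 2.42 (1.38 to 4.05), Slc9a2 at 2.33 (1.23 to 4.14) and Tm4sf20 at 2.21 (1.65 to 2.90) led the 11 called higher. Il18rap, Epha4, Dst, the endosomal tethering gene Tgfbrap1, Cnnm4 and Pgap1 followed, between 1.58 and 2.04. Without the top barcode of each gene, the intervals of Slc9a2 at 1.98 (0.999 to 3.63), Il18rap at 1.72 (0.840 to 3.25) and Tgfbrap1 at 1.68 (0.899 to 2.94) included 1. Vil1 was at 1.40 (1.17 to 1.67) and was not called. The lower 8 were Rhbdd1, Hjurp, Ccl20, Pde6d, Arl4c, Itm2c, the splicing kinase gene Clk1 and Zfand2b, with ratios up to 0.660. 1110058L19Rik, at 0.698 (0.486 to 0.977), was next and short of the size for a call.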

How the data were processed

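The deposited data are raw counts in 1 table of genes by barcodes for all 8 samples. Per the submitters' processing notes, Cell Ranger, Seurat 2.3.0 and build mm10 were used. The sources used here do not give the annotation, the strand or earlier filters. Counts were read as UMIs. The row Asb18 held 928 values, all 0, and was left out, and 0 columns of per-sample values were left unused. Barcodes of under 100 UMIs were left out, keeping 439743 of 444786 UMIs. Ratios are conditional maximum likelihood rate ratios within 5 bins of total UMIs (from 100, 200, 300, 400 and 600), with exact 95% intervals. CPM are UMIs per 1000000 of the table. The method was tested on simulated data. No test over samples was possible. Members and the 18 gene lists (265 genes, 169 with a row) were chosen with earlier results of these data known. Named genes were the markers, list members, the 10 highest and 10 lowest ratios whose interval excludes 1 in members and in Alpi-rich barcodes, and up to 5 genes under 50 UMIs. One of them is not reported here. Alternatives changed filters, bins, totals, depth, members and single barcodes. Python 3.11.15, numpy 2.4.6, scipy 1.17.1 and pandas 2.3.3 were used.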

Additional observations from a re-analysis of the deposited data

How the results depend on the processing

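No paired analysis was possible because barcodes are not mapped to samples. After thinning to 100 UMIs, 28 barcodes held Alpi and 5 held 3 or more. Of the values of the main results under alternatives, 89 stayed within the interval of the reported ratio, or within 1.5 times the reported count, and 19 did not. Over the 61 members, Vil1 was at 1.04 (0.783 to 1.37) with exactly 1 Alpi UMI and 1.77 (1.41 to 2.20) with 2 or more. In the Alpi-rich barcodes Tm4sf20 was at 2.14 without the deepest 5% of barcodes and 2.01 without its top barcode. The 11 genes called higher in members became 7 with exactly 1 Alpi UMI, 7 at 2-fold and 5 at 200 or more UMIs per gene. The 8 called lower became 18 with no bins, 3 after thinning, 3 at 2-fold and 43 with no condition on the interval. In the Alpi-rich barcodes the 12 higher became 6 at 2-fold and 36 with no condition on the interval, and the 6 lower became 13 with no bins, 11 with totals without the 10 most abundant genes, 1 after thinning and 55 with no condition on the interval.

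Of 506 values of 46 other ratios under alternatives, 466 stayed within the interval of the reported value, 35 left it and 5 reversed. A reversal was counted only where the reported interval excluded 1, so the 35 need not all have kept their direction. Over the members, Il18rap reversed to 0.537 and Rdh10 to 0.952 with exactly 1 Alpi UMI, Ptma to 1.03 with no bins, and Tyw5 to 0.917 and Zfand2b to 1.06 after thinning. The cause was not tested. Leaving out each gene's top barcode and the call with no interval condition were chosen after seeing the data.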
